A study of Mus musculus with 6 samples.

Results

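The genes described here encode the carriers that move drugs, bile pigments, hormones and other organic ions into and out of liver cells. They are the protein-coding genes of GRCm38 whose symbol begins with Slco, Slc22a, Slc47a, Abcb, Abcc or Abcg, with 1 Abcb gene left out that is not analysed here. That rule gave 66 genes of 54532 gene rows in the count table: 39 in the uptake families (14 Slco and 25 Slc22a) and 27 in the efflux families (2 Slc47a, 9 Abcb, 10 Abcc and 6 Abcg). Liver RNA was sequenced from 6 mice, 1 library per mouse. The groups were 3 wild-type mice and 3 Cd44-/- mice of strain B6.Cg-Cd44tm1Hbg/J, a germline deficiency of the hyaluronan and osteopontin receptor CD44. Both genotypes drank a Lieber-DeCarli formula containing 5% (by volume) ethanol over 10 days, were gavaged with ethanol at 5 g/kg on day 11, and were killed 9 hours later. All 6 mice had ethanol, so the values compare genotypes within ethanol-exposed liver, and a liver without ethanol was not analysed here. The age of the mice is not given in the sources used here.

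Hepatocytes clear organic ions from blood in a vectorial way. Organic anion transporting polypeptides (the Slco family) and organic anion and cation transporters (the Slc22a family) sit mostly on the sinusoidal, blood-facing membrane and let substrates in. ATP-binding cassette pumps of the Abcb, Abcc and Abcg families use ATP to push conjugates, phospholipid and sterols across the canalicular membrane into bile or back across the sinusoidal membrane into blood, and the Slc47a exchangers swap organic cations for protons at the canaliculus. Not every gene with an Abcb or Abcc symbol is such a pump: Abcb6, Abcb8 and Abcb10 act in mitochondria or other organelles, Abcb9 is lysosomal, and Abcc8 and Abcc9 are regulatory subunits of potassium channels. A change is the log2 ratio of knockout to wild-type with its standard error, and a level is in CPM (counts scaled to a library of fixed TMM-normalised size), given mouse by mouse in the order 1, 2, 3.

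Reads assigned to genes came to between 15429784 and 19293777 per library, so that a gene with a count of 0 could still have a level of up to 0.15 to 0.206 CPM (3 counts, for counting error only). The counts of Cd44 were 590, 175 and 568 in wild-type and 1, 0 and 0 in knockout libraries, so each library carried its labelled genotype. Hepatocyte markers (Alb, Apoa1, Ttr, Serpina1a, Cyp2e1 and Tat) summed to between 78720 and 106600 CPM, as the liver label states, and the 5 kidney tubule markers summed to at most 0.587 CPM, with Umod, Slc12a1 and Aqp2 at 0 in all 6 libraries. Xist was present at 443 to 759 CPM and Ddx3y, Uty, Kdm5d and Eif2s3y had 0 counts in every library, so all 6 mice carried the transcripts of female animals. The 9 Kupffer cell and macrophage markers all averaged lower in the knockout and summed to 944, 345 and 789 CPM in wild-type mice against 280, 309 and 279 CPM in knockout mice. The 5 tested cholangiocyte markers also had a lower mean, and the list summed to 51.9 to 65.2 CPM against 27.5 to 36.4 CPM, most of it Spp1.

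Of the 66 transporters, 43 had enough counts to be tested, 20 in the uptake and 23 in the efflux families. Levels of different genes can be set side by side only per length, so FPKM (CPM divided by the exon length in kilobases) was computed for this purpose. Among the most abundant members, Slco1b2 had a mean of 137 FPKM over the 6 mice and Abcc2 98.3 FPKM. Next came Abcc3 at 70.4, Slc22a18 at 60.9, Slc47a1 at 49.6 and Abcb4 at 45.0 FPKM. Most of these are known carriers of the blood-facing or the bile-facing membrane of hepatocytes. Neighbours in this order overlapped between mice: Slco1b2 ran from 71.2 to 207 FPKM and Abcc2 from 81.3 to 112 FPKM. A long tail lay at the other end, with Abcc12 at 0.351, Slco1a1 at 0.339, Abcc1 at 0.271 and Abcb1b at 0.253 FPKM.

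The other 23 members were too low to test. Among them 8 had no count in any library, including the kidney anion carriers Slc22a6 and Slc22a8, 12 had 1 to 10 counts in all, and 3 had more: Slco4a1 (39 counts summed over the 6 libraries), Slc22a14 (15) and Slc47a2 (14). None exceeded 13 counts in a library, so a difference between genotypes was not detectable for them at this depth.

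**Figure D1:**
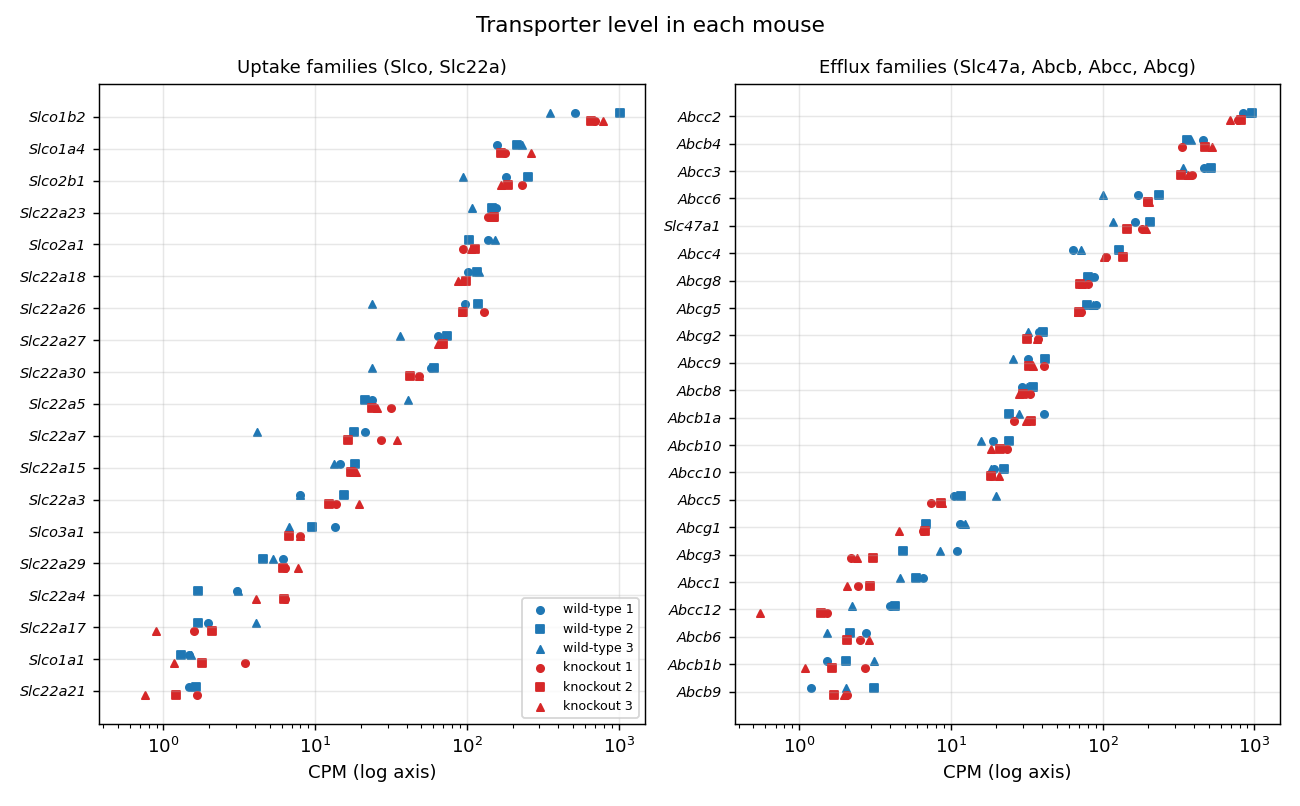
Level in each mouse of 41 of the 43 tested transporters, in CPM on a logarithmic axis, with uptake families on the left and efflux families on the right. Points are to be compared within a row, since CPM is not divided by gene length. For most rows the blue wild-type and red knockout points interleave, and the blue triangle (wild-type mouse 3) lies to the left of the other 5 points in uptake rows such as Slco1b2, Slc22a26 and Slc22a30.

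Stretches of sequence upstream of the transcription start are shown for some genes of the later paragraphs. They are the hepatocyte uptake carrier Slco1b2, the uptake gene with the lowest p (Slc22a4) and the efflux gene with the lowest p (Abcg3). The bases shared by the head-to-head sterol pump genes Abcg5 and Abcg8 are shown as well. They are RefSeq sequences on GRCm38.p6, read 5′ to 3′ on the strand of the gene (for the shared stretch, the plus strand on which Abcg8 lies), and hold no exon base of the GENCODE annotation. Capitals mark matches to 5 short motifs searched on both strands: the TATA box TATAAA, the GC box GGGCGG, the nuclear receptor half-site AGGTCA, the NR5A2 site CAAGGTCA (which contains the previous one) and the ETS core GAGGAA.
Slco1b2 (chr6:141629268-141629517, plus strand): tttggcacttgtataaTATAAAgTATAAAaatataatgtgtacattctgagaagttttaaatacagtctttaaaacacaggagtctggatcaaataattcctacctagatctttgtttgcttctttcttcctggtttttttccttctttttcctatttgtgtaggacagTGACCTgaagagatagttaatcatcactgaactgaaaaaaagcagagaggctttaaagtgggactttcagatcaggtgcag
Slc22a4 (chr11:54028105-54028354, minus strand): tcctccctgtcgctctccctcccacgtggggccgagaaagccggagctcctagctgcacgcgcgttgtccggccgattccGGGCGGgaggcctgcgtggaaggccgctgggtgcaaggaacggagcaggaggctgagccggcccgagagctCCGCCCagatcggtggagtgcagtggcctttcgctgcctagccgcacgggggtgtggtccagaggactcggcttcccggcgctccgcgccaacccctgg
Abcg3 (chr5:104982719-104982967, minus strand): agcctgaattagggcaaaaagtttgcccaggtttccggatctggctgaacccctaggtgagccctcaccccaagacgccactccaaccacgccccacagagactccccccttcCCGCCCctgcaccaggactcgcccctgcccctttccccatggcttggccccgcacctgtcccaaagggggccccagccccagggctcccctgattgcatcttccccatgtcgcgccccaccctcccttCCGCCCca
Abcg5-Abcg8 (chr17:84683012-84683120, plus strand): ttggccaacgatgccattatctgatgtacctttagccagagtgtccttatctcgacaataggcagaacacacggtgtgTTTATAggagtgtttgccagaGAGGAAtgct

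The Slco1b2 stretch held 2 TATA matches, which begin 234 and 227 bases before its end and a nuclear receptor half-site on the opposite strand at 81 bases. Slc22a4 and Abcg3 each held 2 GC boxes and no match to the other 4 motifs. The stretches of 250 bases before Abcc5 and Slc22a26, which are not printed, held no match to any of the motifs. The start sites of Abcg5 and Abcg8 lie 110 bases apart, and the 109 bases between them held TATAAA on the minus strand, the strand of Abcg5, and an ETS core on the plus strand, 10 bases before the Abcg8 start. Promoter entries existed for 52 members (62 entries), 32 of them tested, and 16 of those belong to uptake and 16 to efflux families. A gene was counted if any of its entries held the motif, whereas the share over all windows counts single entries, so the 2 are not strictly alike. A GC box was found in 5 of the 16 uptake and 9 of the 16 efflux genes, beside 32.7% of all 32851 windows of 250 bases. TATAAA occurred in 3 genes of either class (12.4% of all windows) and AGGTCA in 3 uptake and 4 efflux genes (14.0%). GAGGAA was found in 5 and 8 genes (23.3%), and CAAGGTCA in 0 and 2 (1.33%). Abcg5 and Abcg8 share the bases that hold their matches. A match only describes the letters.

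Between genotypes most transporters stayed near their wild-type level. No member passed an adjusted p of 0.05 in edgeR's quasi-likelihood test, where the background was 2 of 14145 genes or 0.0141%, and the smallest adjusted p of a member was 0.217. DESeq2 called 2 members, Abcg3 and Abcc1, both lower in the knockout (its background over all genes was 2.03%). At an unadjusted p under 0.05 in edgeR, 6 members were lower, all in efflux families (Abcc1, Abcc5, Abcc12, Abcg1, Abcg3 and Abcg5), beside 7.59% of all genes tested. By the same measure 1 member was higher, the uptake gene Slc22a4, beside 5.22% of all genes. The 2 genotypes did not overlap and the knockout was lower for 8 members, those 6 with Abcc2 and Slc22a18, against a background of 9.42%. They did not overlap with the knockout higher for 1 member, Slc22a4, against 8.81%. Within 0.5 on the log2 scale lay 15 of 20 uptake and 18 of 23 efflux genes. The share of all genes within that range is not given here. For the counts of higher and lower means below, all genes tested divided into 6921 higher and 7224 lower in the knockout.

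**Figure D2:**
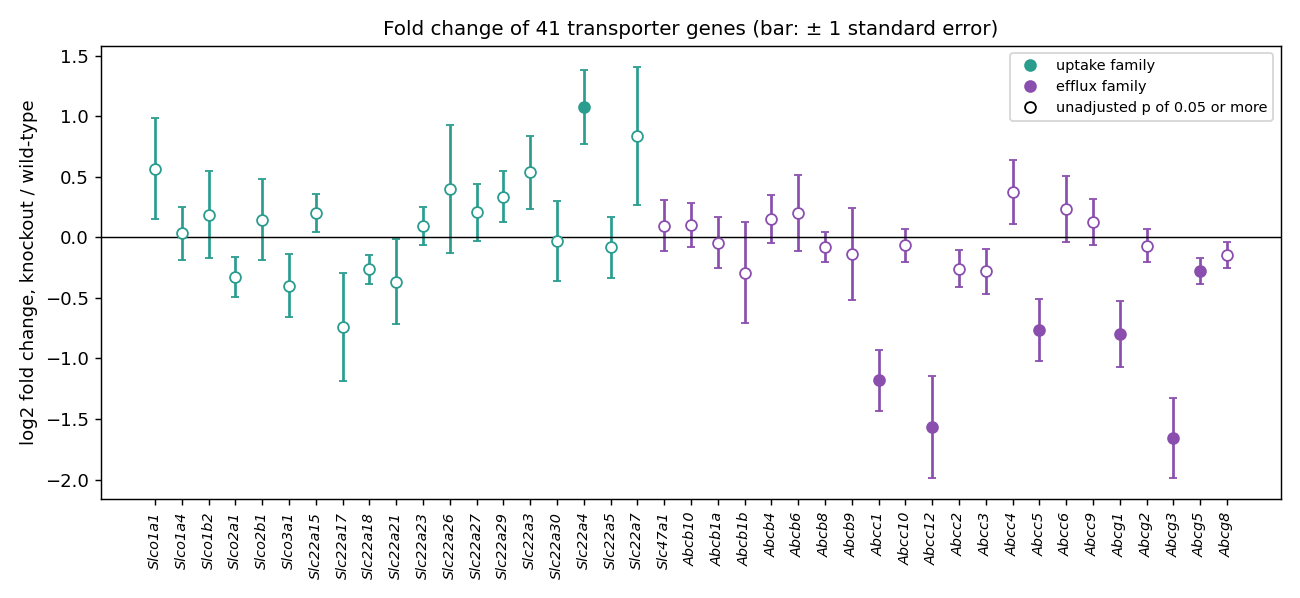
Log2 fold change, knockout over wild-type, of 41 of the 43 tested transporters from edgeR, with bars of 1 standard error (3 mice per genotype). Teal marks uptake and purple efflux families, and filled points have an unadjusted p under 0.05: Slc22a4 above 0, and Abcc1, Abcc12, Abcc5, Abcg1, Abcg3 and Abcg5 below it.

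The Slco carriers did not separate the genotypes. Of 14 genes 6 were tested, 4 with a higher and 2 with a lower mean, and their median change was 0.09. Slco1b2, the main hepatic carrier for bilirubin and many anionic drugs, stood at 513, 1023 and 351 CPM in wild-type mice and at 704, 657 and 790 CPM in knockout mice. All 3 knockout values lay inside the wild-type range (log2 fold change 0.19 ± 0.36). Slco2b1, a broad-substrate anion carrier, had 180, 254 and 93.6 CPM against 231, 186 and 167 CPM (0.15 ± 0.33), again inside the wild-type range. For Slco1a4, a sinusoidal carrier of bile acids and steroid conjugates, the values were 157, 213 and 229 CPM against 179, 168 and 267 CPM (0.03 ± 0.22).

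The other 3 Slco genes were less alike but also overlapped. Slco2a1, the prostaglandin transporter, had 138, 103 and 152 CPM in wild-type and 94.6, 114 and 106 CPM in knockout mice (−0.32 ± 0.16, adjusted p = 0.461 by edgeR's quasi-likelihood test). Slco3a1, a widely expressed member that carries prostaglandins, had 13.6, 9.46 and 6.73 CPM against 7.90, 6.76 and 7.95 CPM (−0.40 ± 0.26), a change of −0.1 without wild-type mouse 1 and −0.623 without wild-type mouse 3. Both means were lower in the knockout, and wild-type mouse 3 went the opposite way in the 2 genes, being the highest of all mice for Slco2a1 and the lowest for Slco3a1. Slco1a1, an anion carrier that is strongly male-predominant in mouse liver, was near the bottom of the scale in these mice at 1.47, 1.31 and 1.53 CPM against 3.45, 1.80 and 1.17 CPM (0.57 ± 0.42), and knockout mouse 1 alone stood above the rest.

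In the Slc22a family 14 of 25 genes were tested, 9 with a higher and 5 with a lower mean, and the median change was 0.15. Slc22a7, an organic anion carrier, had 21.4, 18.1 and 4.13 CPM in wild-type mice and 27.0, 16.4 and 34.4 CPM in knockout mice (0.84 ± 0.57). Its wild-type mouse 3 was the lowest of all 6, and without that library the change was 0.388. Slc22a3, a carrier of monoamines, had 7.995, 15.5 and 7.999 CPM against 13.8, 12.3 and 19.5 CPM (0.54 ± 0.30), but it shares 420 exon bases on the opposite strand with Plg, which had 24358 to 32755 counts per library against 147 to 284 for Slc22a3, so its reads are uncertain.

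Slc22a4 was the member with the clearest higher level in the knockout. It encodes a carrier best known for taking up ergothioneine, a dietary antioxidant, and lies on chromosome 11 (ENSMUSG00000020334, 53983123 to 54028090, minus strand). Its level was 3.05, 1.70 and 3.11 CPM in wild-type mice and 6.37, 6.26 and 4.05 CPM in knockout mice. All 3 knockout mice were above all 3 wild-type mice, with means of 5.56 ± 1.31 and 2.62 ± 0.797 CPM (SD, n = 3). The ratio in edgeR's fit was 2.11. The log2 fold change was 1.08 ± 0.31, with an adjusted p of 0.237 in edgeR's quasi-likelihood test and 0.0839 in DESeq2. On the same chromosome Slc22a5, the high-affinity carnitine transporter, had 23.6, 21.2 and 40.6 CPM against 31.6, 23.7 and 25.4 CPM (−0.08 ± 0.25), with wild-type mouse 3 the highest.

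Other Slc22a genes did not share a direction. Slc22a18, an imprinted gene of the solute carrier class whose substrates are poorly defined, had 102, 116 and 121 CPM in wild-type and 96.3, 98.4 and 87.4 CPM in knockout mice. The 2 groups did not overlap, and the change was small (−0.26 ± 0.12, adjusted p = 0.407 by edgeR's quasi-likelihood test). Slc22a23, an orphan carrier, had 155, 146 and 109 CPM against 137, 151 and 148 CPM (0.09 ± 0.15). Slc22a30, one of a cluster of closely related anion carriers on chromosome 19, had 58.0, 60.3 and 23.5 CPM against 48.0, 42.4 and 48.5 CPM (−0.03 ± 0.33). Slc22a26, of the same cluster and named after its values were seen, had 97.9, 119 and 23.6 CPM against 130, 94.6 and 92.5 CPM (0.40 ± 0.53). In both, wild-type mouse 3 stood well below the other 5 mice. Reads of this cluster, of Slc22a21 and Slc22a5, and of the Slco1a genes may be split between near-identical copies.

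Among the efflux families, the Slc47a and Abcb genes were centred near 0. Slc47a1, which passes organic cations into bile in exchange for protons, had 163, 206 and 118 CPM in wild-type and 181, 146 and 194 CPM in knockout mice (0.10 ± 0.21). The 8 tested Abcb genes had a median change of 0.015, 4 higher and 4 lower, and ran from −0.29 to 0.20. Abcb4, the floppase that supplies phosphatidylcholine to bile, had 457, 360 and 385 CPM against 335, 475 and 523 CPM (0.15 ± 0.20). The P-glycoprotein gene Abcb1a had 41.1, 24.1 and 28.3 CPM against 26.0, 33.6 and 31.2 CPM (−0.04 ± 0.21). Its close copy Abcb1b had 1.52, 2.02 and 3.11 CPM against 2.72, 1.65 and 1.10 CPM (−0.29 ± 0.42). In each of these 4 genes the groups overlapped, and reads of Abcb1a and Abcb1b may be assigned to either copy. The tested Abcb genes of mitochondria and other organelles, with the channel subunit Abcc9, had 4 higher and 2 lower means and a median of 0.087.

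The Abcc pumps leaned lower, with a median change of −0.26 over 9 tested genes, 6 lower and 3 higher. Abcc2, the canalicular exporter of bilirubin glucuronides and glutathione conjugates, had 848, 960 and 935 CPM in wild-type and 786, 812 and 694 CPM in knockout mice. Every knockout mouse was below every wild-type mouse, by a modest margin (914 ± 58.7 against 764 ± 62.4 CPM, SD, n = 3; log2 fold change −0.26 ± 0.15, adjusted p = 0.534 by edgeR's quasi-likelihood test). Abcc3, which returns glucuronides to the blood, had 466, 517 and 338 CPM against 392, 327 and 368 CPM (−0.28 ± 0.19), and here the groups overlapped because wild-type mouse 3 was low. Its change was −0.44 without that mouse and −0.14 without wild-type mouse 2. Abcc4, a sinusoidal pump for cyclic nucleotides and bile acid conjugates, had 64.2, 128 and 72.7 CPM against 106, 136 and 102 CPM (0.38 ± 0.26). Wild-type mouse 2 was the wild-type value inside the knockout range, and without it the change of Abcc4 was 0.752 (adjusted p = 0.0883, the lowest of its leave-one-out values, in edgeR's quasi-likelihood test). Abcc6, a hepatic transporter needed for ATP release, had 173, 236 and 101 CPM against 198, 201 and 201 CPM (0.23 ± 0.27), and Abcc9 had 32.1, 41.8 and 25.8 CPM against 41.4, 32.6 and 35.0 CPM (0.13 ± 0.19).

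The low-abundance pumps Abcc1, Abcc5 and Abcc12 had the lowest Abcc values relative to wild-type. Abcc1 exports leukotriene C and glutathione conjugates and is scarce in resting hepatocytes (ENSMUSG00000023088, chromosome 16, 14361558 to 14475737, plus strand). It had 6.53, 5.94 and 4.64 CPM in wild-type and 2.46, 2.96 and 2.06 CPM in knockout mice, and the groups did not overlap. In edgeR's fit the wild-type level was 2.27 times the knockout level (log2 fold change −1.18 ± 0.25, adjusted p = 0.217 by edgeR's quasi-likelihood test and 0.0207 by DESeq2). Abcc12, a relative of Abcc5 (chromosome 8, 86482260 to 86580686, minus strand), had 3.97, 4.31 and 2.24 CPM against 1.53, 1.40 and 0.548 CPM (−1.56 ± 0.42, adjusted p = 0.226 and 0.0526 by the same 2 tools). Abcc5, an exporter of cyclic nucleotides, had 10.6, 11.7 and 19.9 CPM against 7.44, 8.67 and 8.78 CPM (−0.76 ± 0.26, adjusted p = 0.288 and 0.163). Wild-type mouse 3 made up much of the Abcc5 difference, which was −0.423 without that library.

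In the knockout all 5 tested Abcg genes averaged below wild-type (median change −0.28). Abcg3, a rodent relative of the drug pump gene Abcg2 (ENSMUSG00000029299, chromosome 5, 104935057 to 104982718, minus strand), had 11.0, 4.83 and 8.46 CPM in wild-type and 2.19, 3.06 and 2.40 CPM in knockout mice. It was the transporter furthest below wild-type, with means of 8.09 ± 3.09 and 2.55 ± 0.451 CPM (SD, n = 3). The ratio of wild-type to knockout in edgeR's fit was 3.16. The log2 fold change was −1.66 ± 0.33, with an adjusted p of 0.217 in edgeR's quasi-likelihood test and 0.00204 in DESeq2. Without wild-type mouse 2, the lowest wild-type value, edgeR's adjusted p was 0.0286, and over all 6 leave-one-out fits it ran from 0.0286 to 0.698. Abcg1, which loads cholesterol onto high-density lipoprotein and is abundant in macrophages, had 11.6, 6.85 and 12.5 CPM against 6.57, 6.71 and 4.53 CPM (−0.80 ± 0.27, adjusted p = 0.294 by edgeR's quasi-likelihood test). Wild-type mouse 2 was the lowest wild-type mouse for both genes. Abcg2, the canalicular exporter of sulfate conjugates and urate, had 38.3, 40.8 and 32.2 CPM against 37.3, 31.6 and 37.2 CPM (−0.07 ± 0.14).

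Abcg5 and Abcg8 encode the 2 subunits of the sterol pump that sends cholesterol into bile, and their starts flank the 109-base stretch printed above. Abcg5 had 90.7, 79.2 and 86.9 CPM in wild-type and 72.6, 70.2 and 68.7 CPM in knockout mice (−0.28 ± 0.11, adjusted p = 0.338 by edgeR's quasi-likelihood test). Abcg8 had 87.8, 80.1 and 81.5 CPM against 80.6, 71.6 and 73.1 CPM (−0.15 ± 0.11). Both means were lower in the knockout. The groups were apart for Abcg5 and overlapped for Abcg8, and a difference between the 2 changes was not tested. The 2 genes share 82 exon bases on opposite strands, and reads there cannot be told apart without strand.

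The 6 efflux genes at an unadjusted p under 0.05 were set beside the macrophage markers of the same libraries. The summed markers were 944 and 789 CPM in wild-type mice 1 and 3, 345 CPM in wild-type mouse 2 and 279 to 309 CPM in the knockout mice, and 6 of the 9 markers did not overlap between genotypes. Wild-type mouse 2 was also the lowest wild-type mouse for Abcg3, Abcg1 and Abcg5. It was in the middle of the wild-type mice for Abcc1 and Abcc5, and the highest of all mice for Abcc12. The defining markers Adgre1, Clec4f and Vsig4 were detected in all libraries, at 7.47 to 39.8, 70.3 to 163 and 19.8 to 74.8 CPM. The cholangiocyte list, led by Spp1 (36.5, 52.7 and 42.3 against 25.5, 22.9 and 18.1 CPM), was also lower in the knockout mice, although its keratin genes Krt19 and Krt7 were at or below 2.94 CPM. Neutrophil markers were scarce and summed to 2.42 to 3.57 CPM in wild-type against 0.601 to 2.32 CPM in knockout mice, with S100a9 not overlapping and Ly6g and Mpo at or near 0. Of the 6 stellate cell markers 5 had a lower mean, and Pdgfrb did not overlap, while the sums overlapped (371 to 494 against 353 to 420 CPM). The part of any of these cell types in the transporter values was not tested. In bulk liver, fewer cells of a type and less RNA per cell cannot be told apart.

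**Figure D3:**
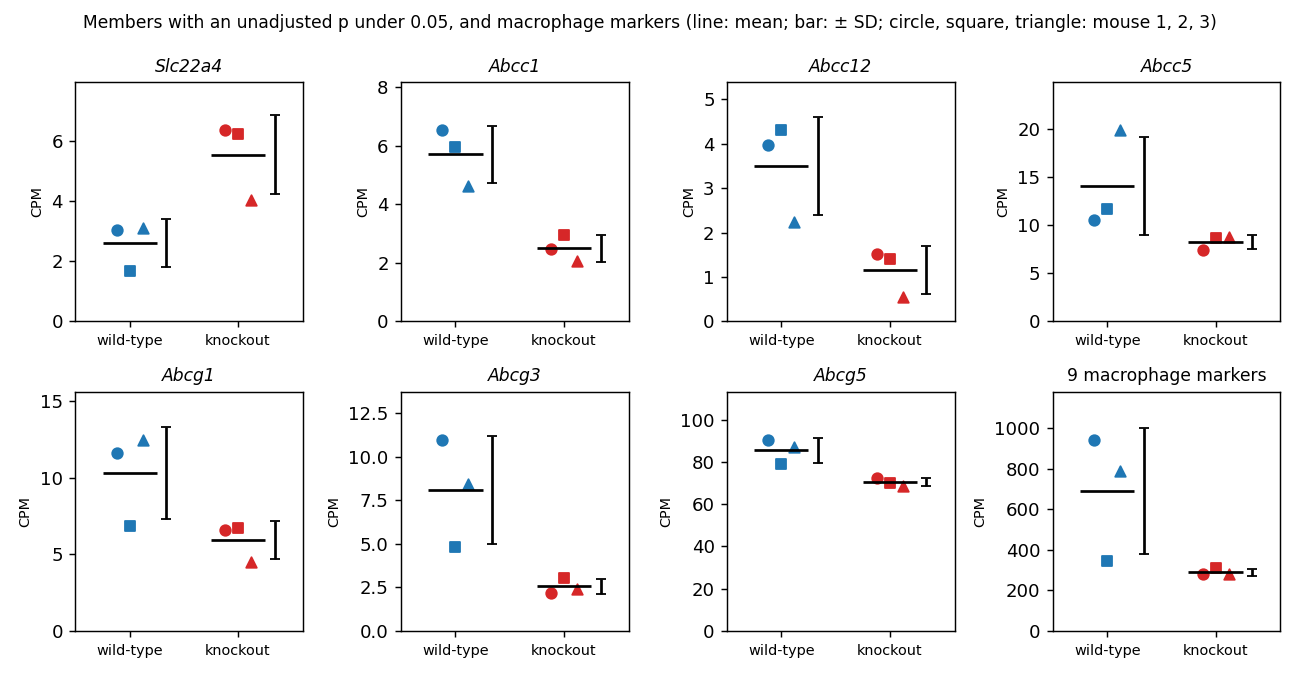
Level in CPM (linear axes from 0) of the 7 transporters with an unadjusted p under 0.05 and, last, of the 9 macrophage markers summed. Circles, squares and triangles are mice 1, 2 and 3 of each genotype, lines are means and bars SD (n = 3). In the 7 gene panels the groups do not overlap, and the wild-type square lies near the knockout points for Abcg1 and the macrophage markers.

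Uptake and efflux families were then compared within each mouse. For every tested gene the log2 CPM was centred on its mean over the 6 mice, and the median over uptake genes and over efflux genes was taken per mouse. Uptake medians were 0.035, 0.16 and −0.32 in wild-type mice and 0.15, 0.040 and 0.076 in knockout mice. The groups overlapped because wild-type mouse 2 was the highest of all, whereas wild-type mice 1 and 3 lay below every knockout mouse. Efflux medians were 0.024, 0.18 and −0.083 in wild-type and −0.0022, −0.14 and −0.10 in knockout mice, also overlapping. Uptake minus efflux was 0.011, −0.018 and −0.23 in wild-type mice and 0.15, 0.18 and 0.18 in knockout mice. All 3 knockout mice were above the wild-type mice in this difference, by 0.25 on average (0.17 ± 0.017 against −0.080 ± 0.13, SD, n = 3). It was 0.158 without wild-type mouse 3 and 0.132 with no filter on low counts. It was 0.375 when the ABC genes of organelles and channel subunits were left out of the efflux class. The 17 tested genes kept, with the exchanger gene Slc47a1 among them, are called the cell-surface subset. That subset was chosen after the data were seen, and the uptake class was not narrowed in a like way.

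Counted over genes, 13 of 20 uptake members had a higher mean and 7 a lower one, with a median fold change of 0.12, while 8 of 23 efflux members were higher and 15 lower, with a median of −0.077. Over all genes tested 6921 were higher and 7224 lower, and the median was −0.0075. In the cell-surface subset, chosen after the data were seen, 13 of 17 efflux genes were lower, with a median of −0.26. The uptake median depended on single wild-type libraries, in opposite directions: it was −0.044 without wild-type mouse 3 and 0.299 without wild-type mouse 2. The efflux median ran from −0.13 to −0.0061 when 1 mouse was left out, and was nearest to 0 without wild-type mouse 2. In summed CPM, which the abundant genes dominate, uptake was 1955, 2834 and 1499 against 2323, 2112 and 2256, and efflux was 2632, 2852 and 2373 against 2413, 2490 and 2477. The wild-type range of the uptake sum enclosed all 3 knockout values, and the same held for efflux.

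**Figure D4:**
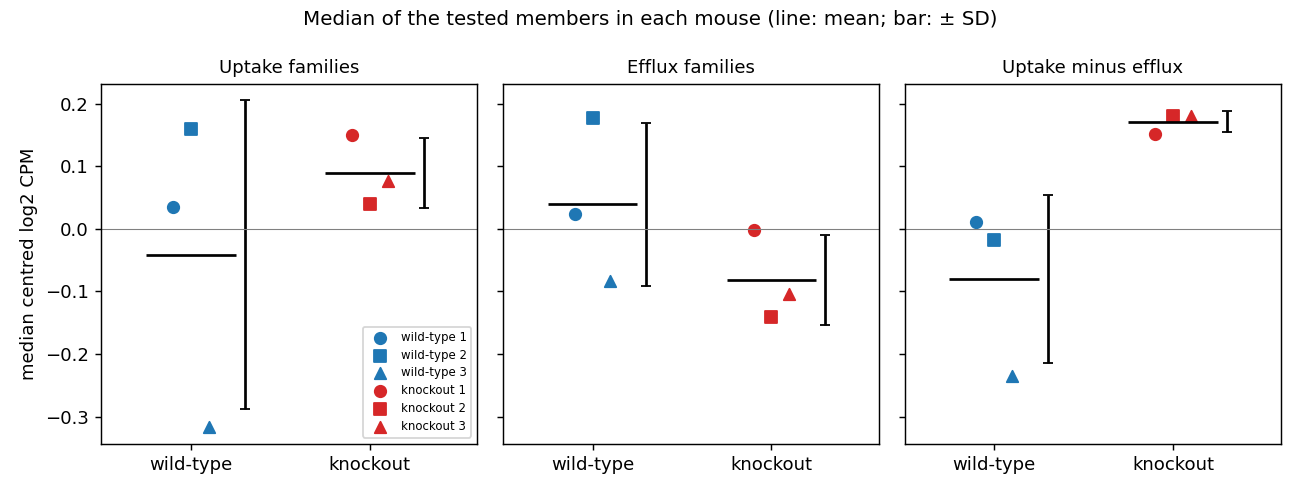
Median over tested genes of log2 CPM centred on each gene's mean over the 6 mice, for the 20 uptake genes, the 23 efflux genes and the difference between them, with 1 point per mouse, the mean as a line and SD as a bar (n = 3). The first 2 panels overlap between genotypes, and in the third the knockout mice lie between 0.15 and 0.18, above the wild-type mice.

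Wild-type mouse 3 stood apart in the uptake families. It was the lowest of the 6 mice for 10 of 20 uptake genes (50%) and for 6 of 23 efflux genes (26.1%), whereas it was the lowest for 23.8% of all genes tested. Among uptake genes with a mean of at least 20 CPM it was the lowest for 8 of 12, including Slco1b2, Slco2b1, Slc22a7, Slc22a23 and Slc22a30. Its hepatocyte marker sum, most of it Alb, was the lowest of the 6 at 78720 CPM. Alb, Ttr, Serpina1a and Cyp2e1 each had their lowest value in this mouse, whereas 2 markers of that list, Apoa1 and Tat, had their highest. The bile acid carrier Slc10a1 was low in it too (294 CPM against 586 to 902 CPM in the other 5 mice). Slco2a1, Slc22a18 and Slc22a5 went the other way, with their highest value in that mouse. A test of this pattern was not run, since the mouse was singled out after its values were seen.

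Regulators known to act on transporter genes, most of them transcription factors, were read from the same fit. Of 28 genes 27 were tested, 21 with a higher and 6 with a lower mean, beside 6921 and 7224 of all genes tested. Their median change was 0.26. No gene passed an adjusted p of 0.05 in edgeR's quasi-likelihood test. At an unadjusted p under 0.05 in that test, 4 were higher and 0 lower (5.22% and 7.59% of all genes). DESeq2 called 1 (2.03% of all genes). Foxa2, a liver pioneer factor, had 24.6, 24.0 and 27.5 CPM in wild-type and 52.6, 36.4 and 73.2 CPM in knockout mice (1.09 ± 0.24, adjusted p = 0.217 by edgeR's quasi-likelihood test and 0.00493 by DESeq2). All 3 knockout mice exceeded the wild-type mice. Ahr, the dioxin receptor, had 53.2, 47.5 and 50.4 CPM against 81.6, 59.8 and 70.3 CPM (0.49 ± 0.14), and Cebpb, an acute-phase factor, had 96.5, 107 and 126 CPM against 130, 150 and 163 CPM (0.43 ± 0.15). Rxrb, a partner of many nuclear receptors, came next at 0.28 ± 0.12. Its unadjusted p was 0.0521 by edgeR's quasi-likelihood test, so it is not among the 4 genes counted above. In the 4 genes named here the groups did not overlap. Over the whole list 6 genes were higher and 1 lower without overlap, beside 8.81% and 9.42% of all genes.

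The other carriers and membrane scaffolds of hepatocytes were divided: 20 of 21 were tested, 11 higher and 9 lower, with a median change of 0.042. No gene passed an adjusted p of 0.05 in edgeR's quasi-likelihood test, while 1 was higher and 2 were lower at an unadjusted p under 0.05 (5.22% and 7.59% of all genes) and DESeq2 called 1 (2.03%). Slc29a2, an equilibrative nucleoside transporter, had 1.14, 1.11 and 1.07 CPM in wild-type and 2.79, 2.91 and 2.81 CPM in knockout mice. The groups did not overlap (1.35 ± 0.26, adjusted p = 0.217 by edgeR's quasi-likelihood test and 0.0368 by DESeq2). Its counts were only 21, 17 and 21 against 42, 58 and 41. Counting error at this level exceeds the spread seen, so the closeness of the replicates is no measure of variation between mice. Slc28a2, a concentrative nucleoside carrier, went the opposite way with 2.88, 1.63 and 2.65 CPM against 1.33, 1.603 and 0.754 CPM (−0.94 ± 0.37). Ezr, an ezrin-family protein that links membrane proteins to actin and is typical of bile duct cells, had 14.0, 12.3 and 10.0 CPM against 7.97, 7.21 and 5.55 CPM (−0.81 ± 0.21). Its hepatocyte relative Rdx, which anchors canalicular pumps, had a change of 0.20 ± 0.14, and the scaffold Pdzk1 one of 0.28 ± 0.15.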

How the data were processed

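Poly(A) RNA-seq libraries from the livers of 6 mice, 3 per genotype, were analysed; groups come from the genotype label. The authors deposited raw counts of reads per Ensembl gene, not normalised. Per the submitters' processing notes, the tools were featureCounts 1.5.0-p3, StringTie 1.3.3b and HISAT2 2.0.5, with GRCm38.p6. How featureCounts handled strand and multi-mapping reads, and which annotation it used, is not given in the sources used here. No strand-marking step is described, per the labels' protocols, so reads of overlapping or near-identical genes are uncertain.

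Symbols and positions came from GENCODE M21 on the same build, which matched 54495 of 54682 rows. The 150 rows of unnamed gene models (0.273% to 0.509% of counts) were left out. Counts were tested in R 4.3.3 with edgeR 4.0.16 (filterByExpr, TMM, robust quasi-likelihood F test) and Benjamini-Hochberg adjustment over 14145 genes. The fit was checked on simulated counts. The standard error was taken as |log2 fold change| over the root of F. DESeq2 1.42.0 on all rows and limma 3.58.1 (voom) were alternatives, with RLE scaling, other low-count filters, mouse number as a block and leaving out each mouse. With 3 against 3 mice no exact permutation p can be below 0.1, so none is given. FPKM was computed here from counts over union exon length and serves only to order genes. Lists of members are described by counts and medians, with no test.

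Named genes were a fixed set of 28 transporters, every other member with an unadjusted p under 0.05, every member of at least 5 CPM whose genotypes did not overlap, and up to 5 regulators and 5 partner genes by smallest p. Members, lists and rules were chosen with earlier results of these data known. Values of 3 genes are not reported here, although counts and medians over lists include them.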

Additional observations from a re-analysis of the deposited data

How the results depend on the processing

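The absence of transporter calls in edgeR held with RLE scaling, no filter, a filter of 1 CPM in 3 libraries, limma-voom and the replicate block. DESeq2 called 2 members, and leaving out 1 mouse gave 0 to 1. Over all genes the 2 calls became 6 with no filter, 287 with DESeq2, 0 with limma-voom, 1 with the replicate block and 0 to 151 when 1 mouse was left out, the highest without wild-type mouse 2. Regulators and partner genes had 1 call each with DESeq2 and 0 otherwise. The labels do not say that mouse numbers pair the animals. Deviations of same-numbered mice correlated at −0.0164, −0.0175 and −0.01, which cannot settle pairing, since differently numbered mice were not compared. With the replicate block 5 rather than 6 efflux genes were lower at an unadjusted p under 0.05. That count was 4 to 6 over all settings, and the count of uptake genes higher was 1, or 1 to 4 when 1 mouse was left out (4 without wild-type mouse 2); both were added after seeing the data. The uptake median ran from −0.0443 to 0.299 over the mice left out. The efflux median was −0.259 in the cell-surface subset, also added after seeing the data. Uptake minus efflux was 0.132 with no filter, 0.375 with the cell-surface subset (added after seeing the data) and 0.158 to 0.298 when 1 mouse was left out. It was not recomputed with DESeq2, limma-voom or the replicate block. The cause of these shifts was not tested.

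Single genes near 0 changed sign. Slc22a30 was 0.092 with limma-voom and 0.0762 with the replicate block. When 1 mouse was left out, the lowest and highest changes were −0.187 and 0.209 for Abcb1a, −0.661 and 0.0487 for Abcb1b, −0.0296 and 0.555 for Abcc6, −0.0234 and 0.336 for Abcc9, −0.161 and 0.0142 for Abcg2, −0.0482 and 0.195 for Slc22a23, −0.354 and 0.193 for Slc22a30, −0.247 and 0.263 for Slc22a5, −0.0884 and 0.313 for Slc47a1, −0.195 and 0.159 for Slco1a4, −0.0983 and 0.74 for Slco1b2, and −0.157 and 0.517 for Slco2b1. Without changing sign, others moved over 1.5 times: Slco1a1 from 0.0785 (without knockout mouse 1) to 0.854, Slco2a1 from −0.46 to −0.204 (without wild-type mouse 3), Abcb4 from 0.0236 (without knockout mouse 3) to 0.332 (without knockout mouse 1), Slc22a3 from 0.327 (without knockout mouse 3) to 0.931 (without wild-type mouse 2), Rdx from 0.0976 (without wild-type mouse 3) to 0.302 and Pdzk1 from 0.207 to 0.448 (without wild-type mouse 2). The 7 members with an unadjusted p under 0.05 kept their direction in all these fits. They were picked by that p in these data, and their groups did not overlap. Leaving out 1 mouse could therefore hardly reverse them, and the kept direction is no separate support. Depth limits the 23 untested members.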
